A study of Mus musculus with 9 samples.

Results

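The genes described here are the serine proteases of the epidermis and the inhibitors that hold them in check. They were picked by symbol, with earlier results of these data known, as the genes whose symbol begins with Serpinb, Spink or Klk and a digit (without the Klk1b group), together with Cst6, St14, Prss8, Prss27, Spint1 and Spint2. Of the 29205 genes measured, 55 met this rule, and the 50 with a summed count of at least 10 over the 9 libraries were kept. Klk4, Serpinb9f, Spink6, Serpinb9g and Klk2-ps were left out, with 9, 1, 4, 1 and 1 counts. The 50 members are 11 kallikreins, 3 membrane-anchored proteases, 10 Kazal-type inhibitors (Spink), 2 Kunitz-type inhibitors (Spint1 and Spint2), 1 cystatin (Cst6) and 23 clade B serpins. The symbols fit the class names, but a shared name is no proof of expression in the epidermis, and the level of each member is given for that reason.

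RNA from whole back skin of male BALB/c mice of 6 to 8 weeks was sequenced in 3 groups of 3 libraries. All mice were shaved and depilated on the back. The control group received no imiquimod (IMQ), a Toll-like receptor agonist whose cream produces psoriasis-like lesions. The IMQ group received 62.5 mg of 5% IMQ cream a day for 5 days. The LYS group received the same cream and Longkui Yinxiao soup (LYS), a herbal decoction, by gavage. Skin was taken on day 13 in every group. The wild-type strain carried no engineered allele, and whole skin holds dermis, fat, muscle and hair follicles beside the epidermis. Summed counts ranged from 14658645 to 19609878 per library. The labels give 3 samples per group without naming the mouse behind each, so the p-values measure the spread between these samples.

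In the stratum corneum, kallikreins cleave the corneodesmosomes that hold dead keratinocytes together, and the cells are then shed. KLK5 and KLK14 are trypsin-like and can activate other kallikreins, whereas KLK7 is chymotrypsin-like. LEKTI, the product of Spink5, inhibits several of them, and its loss in humans causes Netherton syndrome, with a fragile barrier and excessive shedding. Matriptase (St14) and prostasin (Prss8) form a membrane-bound protease pair that is held back by HAI-1 (Spint1) and HAI-2 (Spint2). Clade B serpins are mainly intracellular inhibitors that trap a protease in an irreversible complex, although some members have lost this function.

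Levels are counts in CPM, scaled with TMM, a quantity comparable between libraries for the same gene. FPKM is used where genes are compared with each other, because it is also divided by gene length. DEGs were genes that passed an adjusted p of 0.05 and changed by more than 0.58 in either direction on the log2 scale (log2FC), by edgeR's quasi-likelihood test fitted to all genes of the pair of groups. Together the members took 0.215% ± 0.0445 (SD, n = 3) of the counts in control libraries, 1.37% ± 0.139 in IMQ libraries and 0.803% ± 0.262 in LYS libraries.

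Between the IMQ and control groups, 38 of the 50 members passed the count filter of the edgeR fit, of which 29 were upregulated, 7 were downregulated and 2 were not DEGs. Among all 15976 genes tested, 24.1% were upregulated and 26.9% were downregulated. The median log2FC was 2.69 over the members and -0.06 over all genes. With genes at the 3-count floor set to their bounds, the members' median was the same. DESeq2, run without that filter, called 33 members higher and 8 lower, against 20.3% and 21.3% of the genes it gave an adjusted p. The groups did not overlap in CPM for 28 higher and 7 lower members, which was the case for 31.6% and 38.9% of all tested genes. Of the 38 members, 8 passed the count filter through only the group in which they were high (Serpinb9b, Klk12, Klk14, Serpinb6d, Spink2, Serpinb3d, Serpinb6e and Serpinb3c), so they had to differ. Without them, 25 of 30 members were upregulated and 3 were downregulated, and the median log2FC was again 2.69. The heat map of all members by library shows the 3 IMQ libraries bright over most of the kallikreins and the more abundant serpins.

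**Figure D1:**
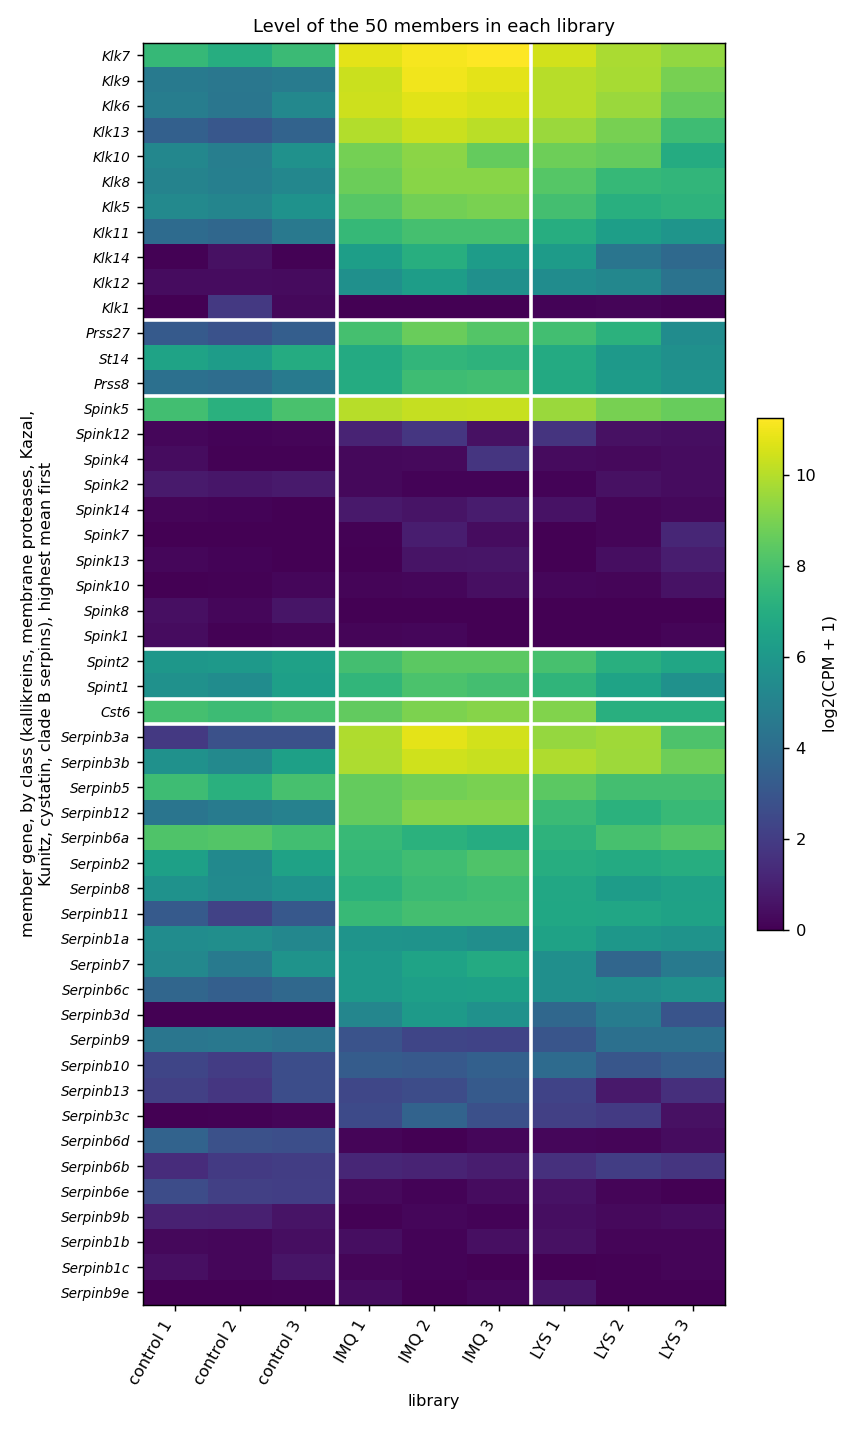
Level of each of the 50 members (rows, grouped by class and ordered by mean level) in each of the 9 libraries (columns), as log2(CPM + 1) on the colour scale. The 3 IMQ libraries are brighter than the 3 control libraries over Klk5 to Klk14 and most abundant serpins, the LYS libraries lie between, and most Spink genes are dark in every library.

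The kallikreins rose with IMQ. All 8 that passed the count filter in both groups were upregulated, with log2FC from 3.45 (Klk5) to 6.96 (Klk13) and a median of 4.0. Klk12 and Klk14, which passed it through the IMQ group alone, had log2FC of 7.74 and 9.07. In each of the 8, every IMQ library lay above every control library. Among all tested genes, 24.1% were upregulated and 31.6% were higher without overlap. Klk12 and Klk14 did not overlap either, but had to differ. These 10 genes, Klk5 to Klk14, lie side by side on chromosome 7 (GRCm38, chr7:43690418-43851181), a stretch of 161 kb. Klk1, the tissue kallikrein that lies further along the same chromosome, did not pass the filter.

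Klk14 went from near absence to a high level. Its CPM was 0.0488, 0.426 and 0.0495 in the control libraries, from 1, 9 and 1 counts, and rose to 78.8, 132 and 73.7 in the IMQ libraries. The log2FC was 9.07 ± 0.51 (SE, adjusted p = 1.37e-05). Klk12 read 0.293, 0.284 and 0.248 CPM in the control group and 48.8, 76.2 and 48.6 CPM in the IMQ group, with a log2FC of 7.74 ± 0.30 (adjusted p = 4.06e-06). Exon bases of Klk14 and Klk8 overlap an antisense transcript, 2310002F09Rik, over 22.6% and 24.8% of their length. That transcript had 143 counts over the 9 libraries, and the library kit named in the labels is not described as stranded.

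Among the kallikreins already present in control skin, Klk13, Klk9 and Klk6 rose most. Klk13, a trypsin-like protease, had 9.82, 7.42 and 11.1 CPM in the control group and 1000.2, 1315 and 1085 CPM in the IMQ group (log2FC 6.96 ± 0.25). Klk9, a chymotrypsin-like member, moved from 23.3, 21.1 and 24.96 CPM to 1332, 2052 and 1811 CPM (log2FC 6.29 ± 0.25). Klk6, known as neurosin from its discovery in brain, moved from 26.1, 20.4 and 37.3 CPM to 1372, 1738 and 1548 CPM (log2FC 5.86 ± 0.29). The libraries of a group lay close together in each case, far from those of the other group.

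Klk7 and Klk5, the stratum corneum chymotryptic and tryptic enzymes, started higher and rose by a smaller factor. Klk7 measured 188, 129 and 204 CPM in the control group and 1795, 2243 and 2459 CPM in the IMQ group, 12.5 times the control mean (log2FC 3.70 ± 0.25, adjusted p = 2.43e-05). Klk5 measured 38.0, 33.6 and 52.3 CPM in the control group and 320, 466 and 511 CPM in the IMQ group, 10.5 times the control mean (log2FC 3.45 ± 0.25, adjusted p = 3.03e-05). The log2FC of the other kallikreins was 4.17 for Klk8 (neuropsin), 3.84 for Klk11 and 3.77 for Klk10.

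Per unit of length, Klk7 was the most abundant of all members in control skin, with an FPKM of 104 ± 27.7 (SD, n = 3), followed by Serpinb5 at 84.4 ± 27.3 and Cst6 at 65.7 ± 9.15. The mean ± SD of each overlapped that of the next. In the IMQ group the order was led by Klk9 at 1003 ± 152 FPKM, Klk7 at 979 ± 91.2, Klk6 at 881 ± 59.0, Serpinb3a at 729.9 ± 169 and Serpinb3b at 614 ± 90.8, and again each overlapped the next. Klk9 had ranked 15 and Serpinb3a 28 among the 50 members in the control group. In the LYS group Klk9, Klk7 and Klk6 were again the first 3, at 559 ± 181, 550.3 ± 189 and 498 ± 213 FPKM. The summed FPKM of the 11 kallikreins was 252 ± 64.8 (SD, n = 3) in control, 4418 ± 409 in IMQ and 2462 ± 921 in LYS libraries.

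**Figure D2:**
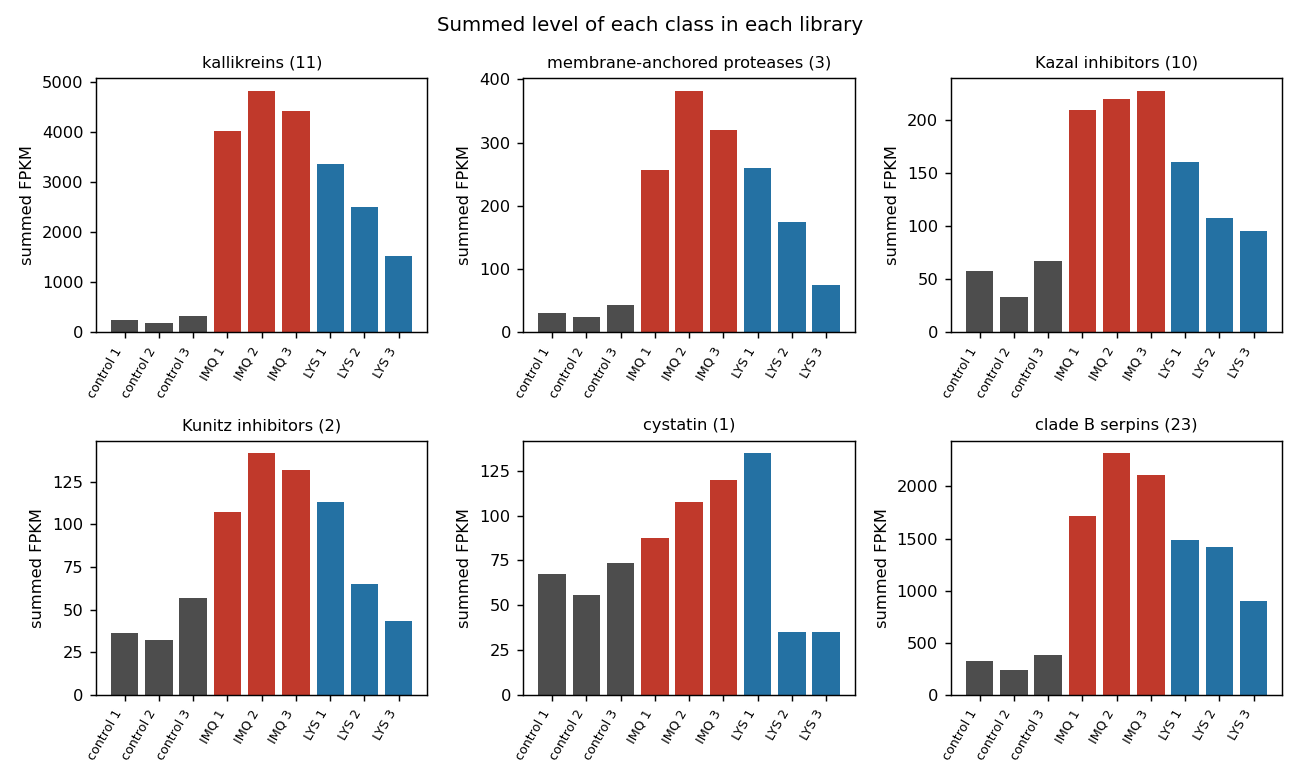
Summed FPKM (vertical axis, starting at 0) of the members of each class in each library, with control libraries in grey, IMQ in red and LYS in blue. The kallikrein sums were 187 to 317 in control, 4012 to 4829 in IMQ and 1522 to 3362 in LYS libraries, and the cystatin panel shows LYS 1 at 135 against 35.0 and 35.2 in LYS 2 and LYS 3.

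The membrane-anchored proteases were unequal. Prss27 (marapsin), a tryptic protease of stratified epithelia, had 8.01, 6.05 and 9.26 CPM in the control libraries and 242, 406 and 305 CPM in the IMQ libraries (log2FC 5.41 ± 0.27, adjusted p = 9.05e-06). Prss8 had 17.1, 15.3 and 24.0 CPM in the control group and 119.8, 217 and 230.3 CPM in the IMQ group (log2FC 3.39 ± 0.29, adjusted p = 5.58e-05). In both genes every IMQ library was above every control library, as in 31.6% of all tested genes. St14 had 92.4, 74.8 and 122 CPM in the control group and 118, 168 and 154 CPM in the IMQ group, so the groups overlapped. Its log2FC was 0.66 ± 0.21 (adjusted p = 0.0241), just past the threshold, and with scaling by library totals alone it was 0.19 (adjusted p = 0.429).

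The inhibitors of these proteases were upregulated as well. Spink5 had 230.1, 143 and 262 CPM in the control group and 1060, 1250 and 1289 CPM in the IMQ group (log2FC 2.56 ± 0.25, adjusted p = 0.000101). Spint1 had 51.5, 43.2 and 81.3 CPM in the control group and 171, 264 and 236 CPM in the IMQ group (log2FC 1.99 ± 0.27). Spint2 had 61.3, 66.1 and 86.1 CPM in the control group and 241, 345 and 338 CPM in the IMQ group (log2FC 2.17 ± 0.20). For all 3 inhibitors the IMQ libraries lay above the control libraries without overlap, as in 31.6% of all tested genes. The only other Kazal gene in the edgeR fit, Spink2, had 15, 13 and 15 counts in control and 3, 1 and 1 counts in IMQ libraries, at least 3.45-fold lower. The other 8 did not pass the count filter of that fit. DESeq2 called Spink12 (adjusted p = 0.000211), Spink14 (0.00347), Spink7 (0.0068) and Spink4 (0.0425) higher and Spink8 (0.0139) lower with IMQ. These calls rest on few counts. Spink4 had 6, 1 and 1 counts in control and 3, 3 and 32 in IMQ libraries, so the groups overlapped and only IMQ 3 was high. Spink7 had 1, 12 and 4 counts in IMQ libraries. With all 9 libraries in the fit, edgeR called Spink12 higher (adjusted p = 0.0116).

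Cst6 encodes cystatin M/E, an inhibitor of cathepsin L, cathepsin V and legumain rather than of serine proteases. It had 245, 211 and 256 CPM in the control group and 381, 531 and 594 CPM in the IMQ group (log2FC 1.14 ± 0.19, adjusted p = 0.00125). The call was lost when all 9 libraries shared a fit (adjusted p = 0.0757). The LYS libraries lay far apart, as described with that comparison.

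**Figure D3:**
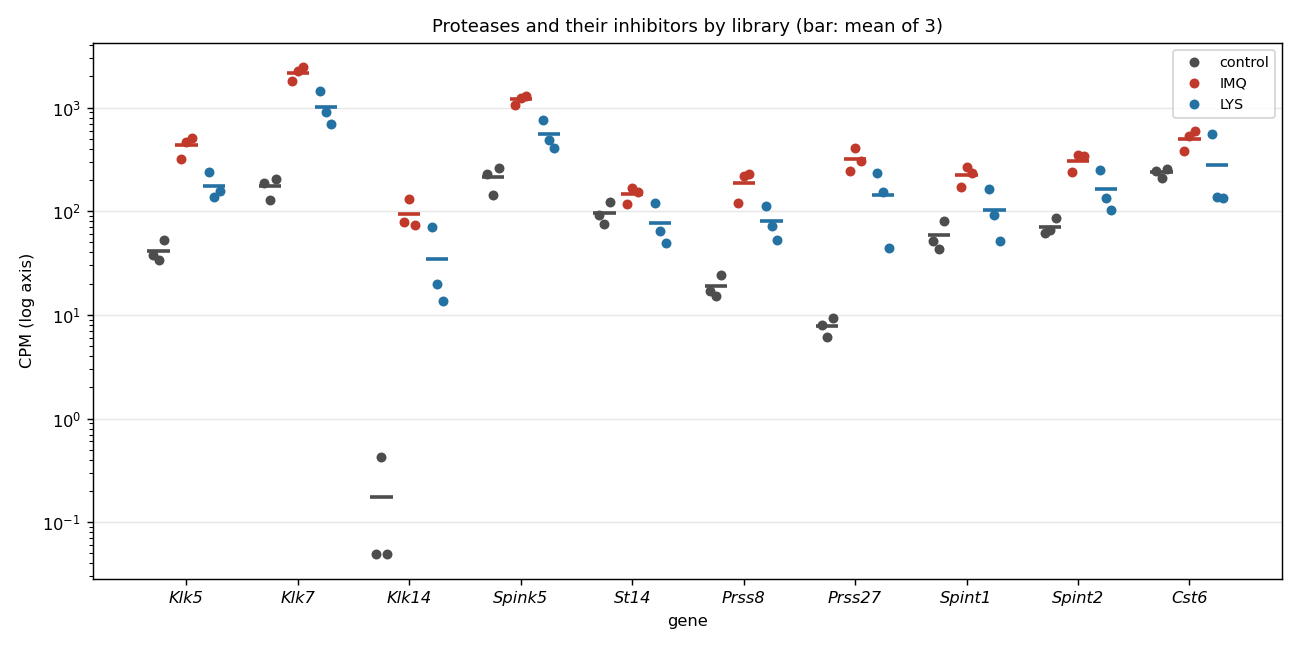
CPM on a log axis of the main proteases and inhibitors in each library (points, 3 per group) with the mean of each group (bars), control in grey, IMQ in red and LYS in blue. Klk14 in control libraries sits far below its IMQ points, St14 differs least between control and IMQ, and the LYS points of Cst6 split into 1 high and 2 low libraries.

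Ratios of FPKM within a library set each protease against its inhibitor and need no scaling between libraries. They are given for 7 pairs as a description, without a test, because 3 libraries against 3 cannot give a permutation p under 0.10. The Klk5 to Spink5 ratio was 0.591, 0.841 and 0.714 in the control group and 1.08, 1.34 and 1.42 in the IMQ group. The Klk7 to Spink5 ratio was 2.06, 2.27 and 1.96 in the control group and 4.28, 4.53 and 4.82 in the IMQ group. The Klk5 and Klk7 ratios were each higher in every IMQ library than in every control library. The Klk14 to Spink5 ratio had a mean of 0.00424 in the control group and 0.298 in the IMQ group. Its control values were 0.000799, 0.0112 and 0.00071, from 1, 9 and 1 counts of Klk14. Klk14 passed the count filter through the IMQ group alone, so it had to differ.

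The matriptase and prostasin ratios moved in opposite directions. St14 to Spint1 read 0.651, 0.627 and 0.545 in the control group and 0.251, 0.230 and 0.237 in the IMQ group, so it was lower in every IMQ library. Prss8 to Spint1 read 0.496, 0.530 and 0.442 in the control group and 1.05, 1.22 and 1.46 in the IMQ group, so it was higher in every IMQ library. The ratios to Spint2 separated the groups in the same directions. In the LYS libraries, St14 to Spint2 lay at 0.285, 0.285 and 0.290 within the range of the IMQ group (0.272 to 0.293). St14 to Spint1 in the LYS libraries, at 0.263, 0.258 and 0.347, was above the IMQ range and below the control range. Klk7 to Spink5 was 4.81, 4.74 and 4.34 in the LYS libraries, overlapping the IMQ group.

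**Figure D4:**
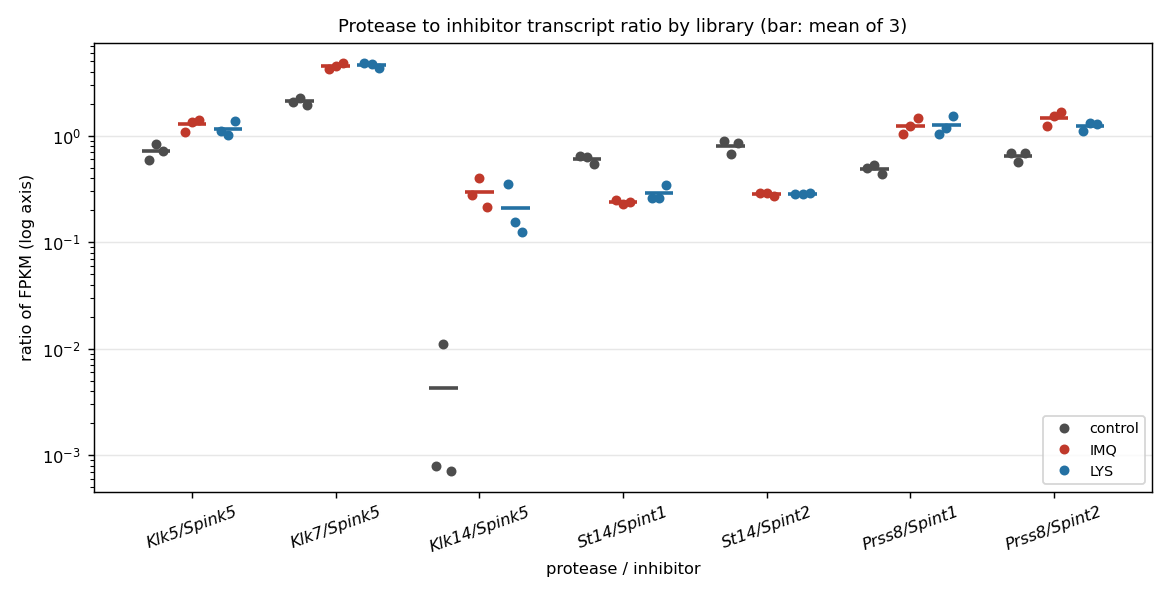
Ratio of protease FPKM to inhibitor FPKM on a log axis in each library (points, 3 per group) with group means (bars), for 7 pairs. Ratios with Klk5, Klk7, Klk14 and Prss8 as numerator are higher in IMQ and LYS than in control libraries, those with St14 are lower, and IMQ and LYS points overlap in 6 of the 7 pairs. The control points of Klk14 rest on 1, 9 and 1 counts.

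The clade B serpins lie in clusters on chromosomes 1 and 13. Of the 12 on chromosome 1 (GRCm38, chr1:106861173-107610484), 10 passed the count filter in both groups, of which 9 were upregulated by IMQ and Serpinb13 was not a DEG. Their median log2FC was 1.90. Serpinb3c and Serpinb3d passed it through the IMQ group alone and were upregulated. Of the 11 on chromosome 13 (chr13:32842092-34002794), 5 passed it in both groups, of which Serpinb9, Serpinb6a and Serpinb6b were downregulated, Serpinb6c was upregulated and Serpinb1a was not a DEG. Their median log2FC was -0.78. Serpinb6d, Serpinb6e and Serpinb9b passed it through the control group alone, so that they had to be lower, and were downregulated. Among all tested genes, 24.1% were upregulated and 26.9% downregulated by IMQ, to be read beside these counts. The plot of log2FC in gene order places the 2 serpin clusters beside the kallikreins.

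**Figure D5:**
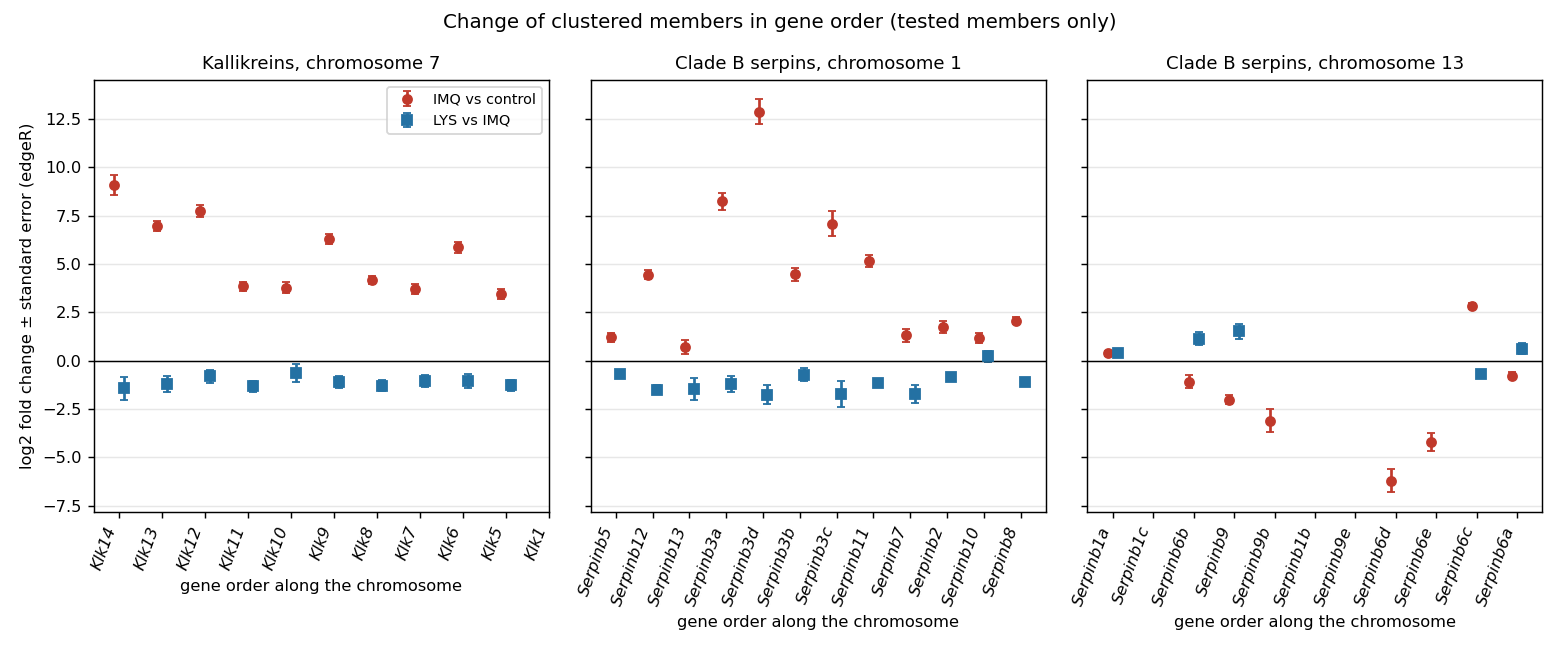
Log2FC with its standard error (edgeR) of the tested members in their order along the chromosome, for IMQ against control (red circles) and LYS against IMQ (blue squares). The kallikreins and the chromosome 1 serpins lie above 0 for IMQ against control and almost all below 0 for LYS against IMQ, while the chromosome 13 serpins mostly show the opposite signs. Serpinb3d and Serpinb3c (control) and Serpinb6d and Serpinb9b (IMQ) had at most 3 counts per library in the group named, so their fitted values have no firm size.

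The 4 Serpinb3 genes, mouse relatives of the human squamous cell carcinoma antigens, included the largest changes. Serpinb3d had 0 counts in each control library and 589, 968 and 703 counts in the IMQ libraries (34.9, 68.9 and 50.4 CPM). Set against a floor of 3 counts per library, it was at least 353-fold higher in the IMQ group. Serpinb3a had 2.69, 5.96 and 5.84 CPM in the control group and 980.2, 1780 and 1432 CPM in the IMQ group (log2FC 8.23 ± 0.43, adjusted p = 1.02e-05). Serpinb3b started higher, at 50.4, 38.7 and 83.2 CPM, and reached 929, 1419 and 1292 CPM (log2FC 4.46 ± 0.34). Serpinb3c had at most 2 counts in a control library and 4.80, 11.2 and 5.73 CPM in the IMQ group, at least 49.7-fold higher. Of the 50-base words in these transcripts, 15.2% in Serpinb3a, 14.7% in Serpinb3b, 12.2% in Serpinb3c and 13.4% in Serpinb3d also occur in another gene, so the split of reads among them is uncertain.

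Serpinb12 and Serpinb11 followed. Serpinb12 had 19.9, 24.4 and 29.5 CPM in the control group and 386, 579 and 576 CPM in the IMQ group (log2FC 4.45 ± 0.24, adjusted p = 1.14e-05). Serpinb11 had 8.20, 3.74 and 7.63 CPM in the control group and 194, 235 and 238 CPM in the IMQ group (log2FC 5.15 ± 0.30, adjusted p = 1.45e-05). The groups did not overlap in either gene, and 31.6% of all tested genes were higher with IMQ without overlap.

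The remaining chromosome 1 serpins rose less. Serpinb8, which inhibits furin in vitro, went from 52.3, 40.7 and 51.9 CPM to 149, 203 and 226 CPM (log2FC 2.06 ± 0.19). Serpinb2, which is plasminogen activator inhibitor 2, had a log2FC of 1.74 ± 0.31, and 12.4% of its exon bases are shared with Serpinb10 on the same strand. Serpinb7, mutated in the human disorder Nagashima-type palmoplantar keratosis, had a log2FC of 1.30 ± 0.32. Serpinb5 (maspin), which does not inhibit proteases in the way of other serpins, went from 215, 141 and 256 CPM to 391, 466 and 503 CPM (log2FC 1.21 ± 0.23). Serpinb10, annotated as a polymorphic pseudogene, had a log2FC of 1.16 ± 0.26. It shares 8.34% of its exon bases with Serpinb2, which had 20569 summed counts against its 1149. Serpinb13, an inhibitor of cathepsins K and L, had 3.42, 2.46 and 5.25 CPM in the control group and 4.27, 5.12 and 8.17 CPM in the IMQ group, with overlapping groups and an adjusted p of 0.116.

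On chromosome 13, Serpinb6d fell from 10.9, 5.91 and 5.45 CPM in the control group to 2, 0 and 2 counts in the IMQ group, at least 36.7-fold lower against the floor of 3 counts per library. Serpinb6e fell from 5.23, 3.40 and 3.27 CPM to 0.237, 0.0712 and 0.287 CPM (log2FC -4.20 ± 0.46, adjusted p = 0.000169). Serpinb9, an inhibitor of granzyme B, fell from 20.6, 21.8 and 18.4 CPM to 6.46, 4.06 and 3.80 CPM (log2FC -2.01 ± 0.23, adjusted p = 0.000197). Its relative Serpinb9b fell from 22, 21 and 10 counts to 1, 2 and 1 counts, at least 4.23-fold lower. The groups did not overlap in Serpinb9, and 38.9% of all tested genes were lower with IMQ without overlap. Serpinb6d, Serpinb6e and Serpinb9b did not overlap either, but they passed the count filter through the control group alone, so they had to be lower.

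Serpinb6a, the most abundant serpin of the chromosome 13 group in control skin, fell from 287, 303 and 233 CPM to 189.9, 144 and 126 CPM (log2FC -0.78 ± 0.18, adjusted p = 0.00685). Genes on the opposite strand, Nqo2, Ripk1 and 1110046J04Rik, share 29.3% of its exon bases. Serpinb6b, at 1.66, 2.79 and 3.07 CPM in the control group and 1.30, 1.21 and 0.860 CPM in the IMQ group, had a log2FC of -1.09 ± 0.35 (adjusted p = 0.0282), a call lost in 5 of 16 alternative analyses. Serpinb6c went the other way, from 12.1, 9.69 and 12.8 CPM to 68.2, 82.3 and 83.7 CPM (log2FC 2.82 ± 0.15, adjusted p = 1.21e-05), and 10.4% of its 50-base words occur in other genes. Serpinb1a, an inhibitor of neutrophil elastase, had 43.4, 46.4 and 35.9 CPM in the control group and 56.3, 54.6 and 46.0 CPM in the IMQ group. Its adjusted p was 0.0394 but its log2FC of 0.38 ± 0.14 was under the threshold.

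Because most of the chromosome 1 serpins rose together, the 250 bases before their transcription starts were searched for the letters of 6 motifs (RefSeq, GRCm38.p6). Promoters were found for 36 of the 50 members, 45 promoters in all, and 14 members, Cst6, Prss8, Serpinb13, Serpinb1a, St14 and Spink1, Spink4, Spink5, Spink7, Spink8, Spink10, Spink12, Spink13 and Spink14, were not searched. TGANTCA, the AP-1 letters, read the same on both strands and occurred in 8 of the 45 member promoters (17.8%) and in 6.75% of 32851 promoters of the same length. These 8 belonged to 7 genes, Serpinb2, Serpinb5, Serpinb7, Serpinb8, Serpinb10, Serpinb11 and Serpinb12, which are all the searched chromosome 1 serpins outside the Serpinb3 group. The match in the 2 overlapping Serpinb2 promoters is the same stretch of DNA. No match lay in the 4 Serpinb3 genes, the 10 searched chromosome 13 serpins or the 11 kallikreins.

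TATAAA, on either strand, occurred in 22.2% of member promoters and 12.4% of all, and 7 of the 11 searched chromosome 1 serpins held it, including all 4 Serpinb3 genes. The letters TTNNGCAA (C/EBP) occurred in 13.3% against 9.56%, TTCNNNGAA (STAT) in 6.67% against 7.02%, the NF-kB letters in 0% against 1.21% and AACNGGTT (GRHL) in 0% against 1.79%. Each search covered both strands, and a match is a description of letters only.

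The promoters below show the contrast between the chromosome 1 serpins with TGANTCA, Serpinb3a, the kallikrein Klk13 and the upregulated chromosome 13 serpin Serpinb6c. Each runs 5′ to 3′ on the strand of its gene and ends at the base before the start. Capitals mark TGANTCA and, on the printed strand, TATAAA.
Serpinb12 (chr1:106934199-106934448, plus strand): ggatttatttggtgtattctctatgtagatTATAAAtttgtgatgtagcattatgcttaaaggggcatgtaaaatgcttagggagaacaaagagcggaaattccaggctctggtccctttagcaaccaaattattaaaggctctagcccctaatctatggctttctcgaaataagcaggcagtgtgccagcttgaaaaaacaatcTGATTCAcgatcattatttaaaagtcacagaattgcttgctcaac
Serpinb11 (chr1:107362064-107362313, plus strand): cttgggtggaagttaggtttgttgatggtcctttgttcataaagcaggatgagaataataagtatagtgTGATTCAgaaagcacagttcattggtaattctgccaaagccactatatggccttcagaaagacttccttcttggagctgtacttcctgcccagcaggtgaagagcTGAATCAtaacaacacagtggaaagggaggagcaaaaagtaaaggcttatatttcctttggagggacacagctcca
Serpinb7 (chr1:107422439-107422688, plus strand): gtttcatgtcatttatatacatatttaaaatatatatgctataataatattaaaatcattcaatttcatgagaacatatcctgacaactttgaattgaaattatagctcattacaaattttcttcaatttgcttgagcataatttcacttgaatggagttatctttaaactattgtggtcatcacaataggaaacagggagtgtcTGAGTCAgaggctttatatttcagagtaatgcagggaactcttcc
Serpinb2 (chr1:107511173-107511422, plus strand): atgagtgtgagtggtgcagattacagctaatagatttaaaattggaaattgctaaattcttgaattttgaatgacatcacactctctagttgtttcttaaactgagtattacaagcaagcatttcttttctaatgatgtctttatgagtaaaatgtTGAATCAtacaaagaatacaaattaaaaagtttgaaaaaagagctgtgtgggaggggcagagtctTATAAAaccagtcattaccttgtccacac
Serpinb8 (chr1:107589756-107590005, plus strand): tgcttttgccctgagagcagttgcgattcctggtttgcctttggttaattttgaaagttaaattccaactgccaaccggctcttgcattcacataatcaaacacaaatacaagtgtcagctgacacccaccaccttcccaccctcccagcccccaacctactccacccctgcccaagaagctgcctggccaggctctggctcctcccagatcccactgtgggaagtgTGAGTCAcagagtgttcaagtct
Serpinb3a (chr1:107052304-107052553, minus strand): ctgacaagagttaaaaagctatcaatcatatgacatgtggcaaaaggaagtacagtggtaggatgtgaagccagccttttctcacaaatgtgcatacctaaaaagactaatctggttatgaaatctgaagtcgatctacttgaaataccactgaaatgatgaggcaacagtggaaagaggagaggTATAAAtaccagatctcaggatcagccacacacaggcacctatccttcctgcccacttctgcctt
Klk13 (chr7:43712317-43712566, plus strand): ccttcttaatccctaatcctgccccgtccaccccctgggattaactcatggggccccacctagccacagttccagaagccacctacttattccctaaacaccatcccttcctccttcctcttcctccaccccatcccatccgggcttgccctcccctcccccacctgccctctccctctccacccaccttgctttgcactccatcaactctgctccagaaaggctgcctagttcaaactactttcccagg
Serpinb6c (chr13:33905192-33905441, minus strand): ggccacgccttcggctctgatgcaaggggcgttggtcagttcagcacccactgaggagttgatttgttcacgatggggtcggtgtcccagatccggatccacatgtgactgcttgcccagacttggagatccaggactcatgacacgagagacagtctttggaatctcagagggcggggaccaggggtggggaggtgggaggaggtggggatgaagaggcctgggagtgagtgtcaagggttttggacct
The first base of TGANTCA lay 45 bases before the start in Serpinb12 and Serpinb7, 23 in Serpinb8, 94 in Serpinb2, and 181 and 76 in Serpinb11. TATAAA began 65 bases before the start in Serpinb3a and 29 in Serpinb2. Serpinb3b and Serpinb3c, not printed, held TATAAA at 41 and 31 bases.

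LYS was set against IMQ alone to ask whether the soup altered these transcripts in treated skin. No member was a DEG by edgeR among the 35 tested (0% of all 15460 genes in either direction), with 0.0591 as the smallest adjusted p. Before adjustment, at p under 0.05, 24 members were lower and 2 were higher in the LYS group, against 15.9% and 19.3% of all genes. The same number, 24 lower and 2 higher, had groups that did not overlap (19.3% and 19.2% of all genes). DESeq2 called 24 lower and 2 higher (9.49% and 13.3% of the genes given an adjusted p), and edgeR fitted to all 9 libraries called 16 lower and 1 higher (8.62% and 9.93%). The log2FC was below 0 in 30 members and above 0 in 5, with a median of -1.10 against 0.036 over all genes. Of the 35, Serpinb3c and Spink12 did not reach the count filter's minimum in every library of both groups. Serpinb3c is among the 24 lower members by unadjusted p, by non-overlap and by DESeq2. Over the other 33 members the median log2FC was again -1.10.

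These values rest on few libraries. Among the 29 members upregulated by IMQ, LYS 1 was the highest LYS library in 26 and LYS 3 the lowest in 21, and IMQ 1 was the lowest IMQ library in 25. Without LYS 1, edgeR called 24 members lower and 3 higher, against 11.9% and 14.9% of all genes. Without IMQ 1 it called 10 lower and 0 higher, against 5.03% and 6.80%. This comparison and the first share the IMQ libraries, so their values for a member are not independent.

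All 10 tested kallikreins had a log2FC below 0 in LYS against IMQ, from -1.44 (Klk14) to -0.64 (Klk10), with adjusted p from 0.0591 to 0.344. Klk5 had 237, 138 and 155 CPM in the LYS libraries, all below the IMQ range (log2FC -1.28 ± 0.27, adjusted p = 0.0591). Klk8 had 314, 187 and 170.1 CPM (log2FC -1.31 ± 0.29) and Klk11 had 129, 79.4 and 57.2 CPM (log2FC -1.34 ± 0.30), both with the same adjusted p and below every IMQ library. Klk7 had 1453, 916 and 697 CPM (log2FC -1.08 ± 0.31, adjusted p = 0.0693). Klk14 spread widely, at 71.1, 19.9 and 13.5 CPM, with LYS 1 close to the lowest IMQ library. In 9 of the 10 kallikreins every LYS library was below every IMQ library, which was the case for 19.3% of all tested genes. Only Klk10 overlapped, at 443, 391 and 121 CPM.

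Among the inhibitors and membrane proteases, Spink5 had 762, 488 and 406 CPM in the LYS group (log2FC -1.12 ± 0.26, adjusted p = 0.0598), below the IMQ group. Of all tested genes, 19.3% were lower without overlap. Prss8 had 113, 72.6 and 53.2 CPM (log2FC -1.24 ± 0.34, adjusted p = 0.0665). Prss27 had 232, 152 and 43.7 CPM (log2FC -1.15 ± 0.54, adjusted p = 0.172). Spint1, at 164, 90.9 and 51.6 CPM, and Spint2, at 249, 135 and 102 CPM, had log2FC of -1.13 ± 0.40 and -0.92 ± 0.34, and Spint2 overlapped with the IMQ group. St14 had 119, 64.7 and 49.4 CPM, also overlapping (log2FC -0.91 ± 0.33, adjusted p = 0.101).

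Cst6 showed the sharpest split inside the LYS group, with 557 CPM in LYS 1 against 138 and 136 CPM in LYS 2 and LYS 3. Its log2FC against the IMQ group was -0.85 ± 0.57 (adjusted p = 0.31). Without LYS 1, it was -1.88 (adjusted p = 0.00683). The low pair lay below all 3 control libraries.

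In the serpins, the smallest p-values against IMQ belonged to Serpinb11, with 105, 100.4 and 90.0 CPM (log2FC -1.17 ± 0.14), and Serpinb12, with 205, 146 and 191 CPM (log2FC -1.50 ± 0.22). Serpinb6c had 48.2, 44.0 and 50.7 CPM (log2FC -0.71 ± 0.13), Serpinb8 had 108, 75.0 and 86.5 CPM (log2FC -1.10 ± 0.21) and Serpinb2 had 130, 118 and 128 CPM (log2FC -0.86 ± 0.18). These 5 were among the members with the smallest p in this comparison, a choice that favours separated groups. In all 5 every LYS library was below every IMQ library, as in 19.3% of all tested genes, and the adjusted p was 0.0591. Serpinb3d, with 12.5, 25.9 and 6.71 CPM, had the log2FC furthest below 0 of all members tested (-1.77 ± 0.48, adjusted p = 0.0656). Serpinb10 was the only chromosome 1 serpin with a log2FC above 0, 0.22 ± 0.29.

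The chromosome 13 serpins leaned the other way. Serpinb9 had 6.82, 16.9 and 17.0 CPM in the LYS group (log2FC 1.50 ± 0.40, adjusted p = 0.0645) and Serpinb6b had 1.93, 3.11 and 2.37 CPM (log2FC 1.13 ± 0.34, adjusted p = 0.0743), both above every IMQ library. Of all tested genes, 19.2% were higher without overlap. Serpinb6a, with 157, 249.8 and 301 CPM, overlapped (log2FC 0.62 ± 0.27). Serpinb6d and Serpinb6e were not tested in this pair, with 2, 2 and 5 and 7, 2 and 0 counts in the LYS libraries.

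Compared with the control group, 23 of the 36 tested members were upregulated in the LYS group and 2, Serpinb6d and Serpinb6e, were downregulated, whereas 15.1% and 12.9% of all 16003 genes were. Leaving out members that passed the count filter through only 1 group, 20 of 30 were upregulated and 0 downregulated. The 8 kallikreins that passed it in both groups were all upregulated, with log2FC from 2.12 (Klk5) to 5.73 (Klk13) and a median of 2.96, and Klk12 and Klk14 were upregulated as well. Serpinb3a (log2FC 6.99 ± 0.57), Serpinb11 (3.93 ± 0.30), Serpinb12 (2.89 ± 0.21), Prss27 (4.22 ± 0.60), Prss8 (2.10 ± 0.32) and Spink5 (1.40 ± 0.33, adjusted p = 0.0158) were also upregulated. The Spink5 call was lost without control 1 (adjusted p = 0.0562) and with limma without a filter (adjusted p = 0.0624). Serpinb3d was at least 103-fold higher. The Spint2 log2FC was 1.21 ± 0.34 (adjusted p = 0.0322), a call lost in 8 of 16 alternative analyses. Serpinb1a, not a DEG with IMQ alone, had a log2FC of 0.72 ± 0.22 (adjusted p = 0.0425).

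The members without a call in LYS against control included St14 (log2FC -0.29 ± 0.35), Spint1 (0.83 ± 0.43), Serpinb5 (0.45 ± 0.27), Serpinb7 (-0.45 ± 0.50), Serpinb2 (0.83 ± 0.29) and Serpinb9 (-0.58 ± 0.31). A missed threshold does not show equal levels, and some of these calls depended on the analysis. St14 was called lower without LYS 1 (log2FC -0.76, adjusted p = 0.0374) and Spint1 higher without LYS 3 (log2FC 1.16, adjusted p = 0.0355). Serpinb2 was called higher by DESeq2, without the count filter and with all 9 libraries in the fit (adjusted p 0.0301 to 0.0494). Cst6 had a log2FC of 0.26 ± 0.55, which turned to -0.80 (adjusted p = 0.0047) without LYS 1, and the number of downregulated members was then 5 (13.4% of all genes were downregulated in that fit).

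Other genes of the pathway were followed in 4 lists, to be read against the 24.1% of all genes upregulated and 26.9% downregulated by IMQ. Of 15 genes in a list of corneodesmosome and filaggrin-type substrates, which includes the receptor gene F2rl1, 11 were upregulated and 3 downregulated by IMQ. Cleavage of their products by these proteases was not tested. Rptn (repetin) had a log2FC of 7.20 ± 0.31 and Lor (loricrin) 3.93 ± 0.47, whereas Dsg4, a desmoglein of the hair shaft, had -6.76 ± 0.73. Cdsn (corneodesmosin), a kallikrein substrate, had a log2FC of 3.73 ± 0.26, and F2rl1, the protease-activated receptor 2 that kallikreins can cleave, had -1.32 ± 0.21. In LYS against IMQ none of the 14 tested was a DEG by edgeR, and 9 were lower and 0 higher at an unadjusted p under 0.05 (15.9% and 19.3% of all genes).

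Of 24 tested other serine proteases and activators, 15 were upregulated and 6 downregulated by IMQ, led by the transmembrane proteases Tmprss11b (log2FC 9.98 ± 0.35), Tmprss11d (8.95 ± 0.49) and Tmprss11a (8.32 ± 0.33). Of 27 cysteine and aspartic proteases and cystatins, 17 were upregulated and 3 downregulated, led by the stefins Csta3 (8.81 ± 0.41), Stfa2 (7.23 ± 0.29) and Stfa2l1 (7.20 ± 0.84), a multigene family whose reads may be shared. Other protease inhibitors went mostly down, with 16 of 26 downregulated and 5 upregulated, among them Slpi, the secretory leukocyte protease inhibitor (7.08 ± 0.47), Wfdc12 (5.66 ± 0.83) and Wfdc5 (4.01 ± 0.20). None of the genes in these 3 lists was a DEG in LYS against IMQ by edgeR, where 5, 6 and 15 were higher (19.3% of all genes) and 10, 13 and 1 lower (15.9%) at an unadjusted p under 0.05. The median log2FC of the other inhibitors there was 1.23.

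Markers of several cell types differed between the groups. Their counts are to be read against the 24.1% of all genes upregulated and 26.9% downregulated by IMQ. Fewer cells of a type and less RNA per cell cannot be told apart in bulk skin. The summed FPKM of 7 suprabasal keratinocyte markers was 2267 to 4092 in control, 13452 to 18653 in IMQ and 6349 to 10543 in LYS libraries. With IMQ, 6 of these 7 were upregulated and 1 was downregulated (log2FC -8.11). Summed over 7 basal keratinocyte markers, FPKM was 1005 to 1649, 4345 to 5906 and 4053 to 6485 in those groups. Here too 6 were upregulated and 1 was downregulated by IMQ (log2FC -0.78). The highest LYS value in both lists was LYS 1. The part of the keratinocyte markers in the members' values was not tested.

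Markers of dermal and follicular cells were lower in IMQ libraries. Among all tested genes, 26.9% were downregulated and 24.1% upregulated. The summed FPKM of 6 fibroblast markers was 2952 to 3619 in control, 335 to 1182 in IMQ and 1107 to 2342 in LYS libraries, with all 6 downregulated by IMQ. Those of 11 hair follicle markers were 1310 to 2896, 26.5 to 35.9 and 14.6 to 23.8, with 10 of 11 downregulated. Sebaceous gland (8 of 8), adipocyte (6 of 6), mast cell (6 of 6), skeletal muscle (5 of 7) and endothelial (4 of 7) markers were also downregulated by IMQ. Neutrophil markers summed to 13.9 to 16.5 FPKM in control, 84.0 to 371 in IMQ and 77.9 to 128 in LYS libraries. The 371 was IMQ 2 alone, with 84.0 in IMQ 1 and 98.1 in IMQ 3. Of the 8 neutrophil markers tested, 6 were upregulated and 1 was downregulated by IMQ. Macrophage and dendritic cell markers summed to 855 to 1374 FPKM in control, 410 to 631 in IMQ and 994 to 2388 in LYS libraries, with 1 of 9 upregulated and 4 downregulated by IMQ, and T cell markers to 4.68 to 7.00, 4.18 to 8.37 and 11.5 to 15.6, with 4 of 8 upregulated and 1 downregulated. The part of these cells in the members' values, the chromosome 13 serpins included, was not tested.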

How the data were processed

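Back skin RNA of 9 libraries was analysed. The authors deposited raw counts per Ensembl gene, and FPKM, each of which matched the same counts divided by a gene length and the library sum. The submitters' processing notes name HISAT2, HTSeq 0.13.5 and GRCm38. Counts were tested with edgeR 4.0.16 (R 4.3.3, TMM, filterByExpr, quasi-likelihood, Benjamini-Hochberg adjustment) on the 6 libraries of each pair of groups, and SE is the log2FC over the square root of F. DESeq2 1.42.0, limma 3.58.1 on log2(FPKM + 1), other scalings, filters and fold limits, and leaving out each library were alternatives. The test was run on simulated counts that gave every gene the same spread between replicates. That run does not show how the test performs on these libraries. Where no library of a group exceeded 3 counts, folds were set against that floor, which covers counting error only. Replicate pairs differed by more than counting allows (chi-square over its degrees of freedom, 16.9 to 100.0).

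The members, the lists and the rule for named genes were chosen with earlier results of these data known. Named are the 12 largest rises and up to 8 largest falls with IMQ (mean CPM of at least 1), the 8 smallest p-values with LYS, and Klk5, Klk6, Klk7, Spink5, St14, Prss8, Prss27, Spint1, Spint2, Cst6 and Serpinb5, and other members where their class is described. The dose of LYS is not in the labels. Genome positions are GENCODE M21 (GRCm38).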

Additional observations from a re-analysis of the deposited data

How the results depend on the processing

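In LYS against IMQ, edgeR called 0 members lower and 0 higher, and 0 of all 15460 genes. Lower calls numbered 24 with DESeq2, 15 without the low-count filter and 16 with all 9 libraries in the fit, and higher calls 2, 1 and 1. DESeq2 called 9.49% lower and 13.3% higher of the genes it gave an adjusted p. With all 9 libraries 8.62% and 9.93% of all genes were called. Without the filter, 2419 of 27402 genes were called in either direction. Leaving out each library in turn gave 0 to 24 lower and 0 to 3 higher (24 and 3 without LYS 1, 10 and 0 without IMQ 1). Of all genes, 26.8% were called in either direction without LYS 1, 11.8% without IMQ 1 and 0% in the other fits. In LYS against control, leaving out a library gave 20 to 25 higher and 2 to 5 lower (5 without LYS 1). These fits called 15.8% to 30.8% of all genes in either direction. In IMQ against control, leaving out a library gave 29 to 32 higher and 6 to 7 lower, with 45% to 54.2% of all genes called. Library totals alone moved the median log2FC of all genes from -0.06 to -0.51 (IMQ against control), from 0.036 to 0.29 (LYS against IMQ) and from -0.01 to -0.15 (LYS against control), and upper-quartile scaling to -0.28 in the first. St14 lost its IMQ call in 10 of 16 alternatives (log2FC 0.19 to 0.67), Serpinb6b in 5, Cst6 in 1 and Serpinb5 in 1, and Spink5 lost its call in LYS against control in 2. The log2FC of Cst6 in LYS against control became -0.24 and -0.25 (limma, pseudocounts 1 and 0.1), -0.24 (limma, no filter), -0.13 (replicate block) and -0.80 to 0.60 when a library was left out (-0.80 without LYS 1). Serpinb6b there, -0.01, became 0.0033 (replicate block) and -0.25 to 0.160 when a library was left out (above 0 in 4 of 6 fits, from 0.0399), and Serpinb6a 0.0052 without LYS 1. The cause was not tested. For samples with the same replicate number, deviations from the group mean correlated at 0.00782, -0.06 and 0.20 in IMQ and control. The values were -0.46, 0.0804 and -0.41 in LYS and IMQ, and -0.12, 0.018 and -0.376 in LYS and control. Samples with different numbers reached 0.473 in LYS and IMQ. With 3 samples per group, these values cannot decide whether the numbers pair samples, and the labels do not say. With the replicate number as a block, 30 members were higher and 6 lower in IMQ against control, 0 and 0 in LYS against IMQ, and 21 and 2 in LYS against control. Of all genes, 8044 of 15976, 0 of 15460 and 3126 of 16003 were called in either direction in these fits.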

Other observations

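Several members did not pass the count filter of the edgeR fits and are given by their counts per library. Spink8 had 8, 3 and 11 counts in the control libraries and 0 in each of the 6 others, and DESeq2 called it lower in the IMQ and LYS groups than in control (adjusted p = 0.0139 and 0.0152). Spink7 had 0 counts in every control library, 1, 12 and 4 in the IMQ libraries and 0, 2 and 22 in the LYS libraries, and DESeq2 called it higher in both (adjusted p = 0.0068 and 0.032). Spink4 had 32 counts in IMQ 3 and at most 6 in any other library. Klk1 had 55 counts in control 2 and at most 4 elsewhere. Spink12, which passed the filter of a pairwise edgeR fit only in LYS against IMQ, had 3, 2 and 2 counts in the control group, 20, 34 and 6 in the IMQ group and 33, 7 and 6 in the LYS group. Against control, it was called higher by edgeR fitted to all 9 libraries (log2FC 3.56 with IMQ, adjusted p = 0.0116, and 3.07 with LYS, adjusted p = 0.0393) and by DESeq2 (adjusted p = 0.000211 and 0.0102).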
